A study of Mus musculus with 6 samples.

Results

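Expression of 10 NK receptor genes of the Klr families was followed across liver immune cells. They were chosen by symbol from the 19349 genes of the deposited tables, which hold 26 Klr genes in all. The members were Klra2, Klra4, Klra7, Klra8, Klrb1c, Klrc2, Klrd1, Klre1, Klrg1 and Klrk1, and each was present in all 6 tables. Killer cell lectin-like receptors (Klr receptors) are C-type lectin-like proteins on the surface of natural killer (NK) cells, type 1 innate lymphoid cells (ILC1) and some T cells. Inhibitory members, among them several Ly49 receptors encoded by Klra genes, read class I molecules on other cells and recruit phosphatases, whereas activating members signal through adaptors such as DAP12 (Tyrobp) and DAP10 (Hcst). The liver is rich in both NK cells and ILC1, and in NKT cells, which are T cells with an invariant receptor that carry NK receptors such as NK1.1.

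The material was liver non-parenchymal cells (LNPCs), that is liver cells other than hepatocytes, and single-cell RNA libraries were made on the 10X Genomics Chromium system. The labels' extract protocol names a SMARTER kit instead, and the tables hold UMI counts per barcode as droplet libraries do. All mice were male C57BL/6J, 8 weeks of age at purchase, and had nonalcoholic steatohepatitis (NASH) induced by 24 weeks of a high-fat diet. In the last 8 weeks, 3 libraries' mice received vehicle (DMSO) and 3 received ginkgetin, a biflavone of Ginkgo biloba leaves, at 10 mg/kg/day by the intragastric route. The question asked here was where these receptor genes were read among the LNPCs and whether their levels differed between vehicle-treated and ginkgetin-treated mice. No chow-diet library was analysed here, so the effect of the diet itself was not measured.

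Of 33168 barcodes, 27544 cells were kept, 3336 to 6918 per library, with total counts of 13128697 to 61796882 unique molecular identifiers (UMIs) per library. Clusters were named from marker genes with every Klr gene left out of the clustering. NK-like cells numbered 206, ILC1-like cells 464, NKT-like cells 1373, CD8 T-like cells 2070 and myeloid-like cells 7878. Ncr1, an activating receptor gene of NK cells and ILC1, had a UMI in 69.9% of NK-like and 84.9% of ILC1-like cells, whereas Eomes, a transcription factor of NK cells, was read in 55.3% and 4.74% of them. Among the NKT-like cells, Zbtb16 (PLZF) was read in 17.5% of cells and Cxcr6 in 78.4%, and the name rests on Cd3 genes, Zbtb16 and Cxcr6. Trav11, the invariant chain segment, had 0 UMIs in the kept cells of every library numbered 1 or 2 and was read in 4.41% to 8.89% of cells of the NKT-like clusters of the libraries numbered 3. Counts of 0 in libraries 1 and 2 with reads in both libraries 3 were found for 1236 genes (below). The zeros of Trav11 therefore do not show that invariant NKT cells were absent from libraries 1 and 2. Of the clusters that stayed unnamed, those of 2 kinds are followed here under the names of their genes. The Cd8a+ Cd8b1-low cells (462) had Cd8a in 74.5% but Cd8b1 in 4.98% of cells, and the Cd3+ Ncr1+ cells (47) came almost entirely from vehicle library 3, which held 46 of them.

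Some libraries stood apart. In ILC1-like, NKT-like, CD8 T-like and myeloid-like cells, same-numbered libraries deviated together from their group means across genes, most strongly the 2 libraries numbered 3 (r of 0.841 to 0.908). Libraries 1 and 2 of the groups correlated about as much across numbers as within them (0.520 to 0.678 across, 0.508 to 0.728 within), so the division ran between libraries 3 and the others. In addition, 1236 genes had 0 UMIs in all libraries numbered 1 or 2 and were read in both libraries 3, and 442 had the reverse pattern, none of them a member or a gene of the lists below. Whether libraries 3 were processed separately is not stated in the sources used here. In ginkgetin library 2, transcripts of endothelial cells were spread through other classes. Ptprb, an endothelial phosphatase gene, had a UMI in 57.4% to 75.0% of its NK-like, ILC1-like, NKT-like, CD8 T-like and B cell-like cells, against 0% to 7.14% in the vehicle libraries, 8.20% to 19.4% in ginkgetin library 1 and 10.1% to 19.0% in ginkgetin library 3. Such genes led the NKT-like cluster that held 330 of that library's 342 NKT-like cells. For the members' main results, values without it are given below. Between 0 and 85 barcodes were shared by any 2 libraries, most by vehicle library 1 and ginkgetin library 2. Vehicle library 3 held only 9 NK-like cells, so tests between the groups in NK-like cells compared 2 vehicle with 3 ginkgetin libraries. Nothing in the labels says which libraries came from separate mice, and p-values measure the spread between libraries.

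All 10 genes lie on chromosome 6, within 8976767 bases (GRCm38, GENCODE vM21), and 8 of them are on the minus strand. From the centromeric side these are Klrg1 (chr6:122270596-122282882), Klrb1c (chr6:128778485-128789215), Klre1 (chr6:129577905-129585827), Klrd1 (chr6:129591782-129598775), Klrk1 (chr6:129610323-129623864), Klrc2 (chr6:129647496-129660689), Klra4 (chr6:130043731-130067271), Klra8 (chr6:130115226-130129898), Klra7 (chr6:130218605-130233322) and Klra2 (chr6:131219223-131247362). Klre1 and Klrd1 are the plus-strand genes. The chemistry is not stated. On the assumption that reads came from 3′ transcript ends, the last 500 transcribed bases were checked for stretches of 91 bases found in another gene. Such stretches made up 6.27% of windows in Klra7 (Klra13-ps), 11.3% in Klrb1c (Gm44511 and Klrb1a) and 6.12% in Klrc2 (Klrc1 and Klrc3), and were absent in the other 7 members. On that assumption, reads of these 3 genes may be shared in part with those copies.

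The Klra family was divided between lineages. Klra4 and Klra8, which encode the activating receptors Ly49D and Ly49H, were almost confined to NK-like cells. Klra7, which encodes the inhibitory receptor Ly49G, was read in NK-like cells and in 2 kinds of Cd8a+ or Cd3+ cells, and Klra2, which encodes the inhibitory receptor Ly49B, was a gene of macrophage-like and monocyte-like cells. The 250 bases upstream of the start site are shown for these 4 genes because the genes are close relatives whose transcripts lay in different cells (RefSeq, GRCm38.p6, minus strand, 5′ to 3′). The windows are Klra4 chr6:130067272-130067521, Klra8 chr6:130129899-130130148, Klra7 chr6:130233323-130233572 and Klra2 chr6:131247363-131247612. Capitals mark GAGGAA or its reverse complement TTCCTC, the core letters bound by PU.1, a transcription factor of myeloid cells.
Klra4: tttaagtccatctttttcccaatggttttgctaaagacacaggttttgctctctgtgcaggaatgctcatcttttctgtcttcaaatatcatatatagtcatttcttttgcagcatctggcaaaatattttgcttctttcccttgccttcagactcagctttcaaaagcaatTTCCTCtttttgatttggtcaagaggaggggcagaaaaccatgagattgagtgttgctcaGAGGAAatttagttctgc
Klra8: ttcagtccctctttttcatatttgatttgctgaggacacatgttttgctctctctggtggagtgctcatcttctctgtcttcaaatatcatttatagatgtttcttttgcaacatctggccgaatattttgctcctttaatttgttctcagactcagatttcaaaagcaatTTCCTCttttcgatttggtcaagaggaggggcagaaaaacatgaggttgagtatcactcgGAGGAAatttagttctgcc
Klra7: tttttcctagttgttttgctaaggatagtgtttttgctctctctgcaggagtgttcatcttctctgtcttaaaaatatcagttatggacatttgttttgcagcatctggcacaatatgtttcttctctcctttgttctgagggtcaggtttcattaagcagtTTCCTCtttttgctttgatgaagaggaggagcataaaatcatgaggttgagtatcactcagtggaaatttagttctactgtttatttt
Klra2: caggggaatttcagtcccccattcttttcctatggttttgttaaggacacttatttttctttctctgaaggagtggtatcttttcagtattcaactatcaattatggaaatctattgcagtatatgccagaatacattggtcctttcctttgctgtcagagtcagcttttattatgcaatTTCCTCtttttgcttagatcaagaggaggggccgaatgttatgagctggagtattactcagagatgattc

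The Klra4 and Klra8 windows were identical at 84.5% of aligned positions, the most of the 6 pairs. The Klra7 window was 75.2% identical to that of Klra8 and 74.1% to that of Klra4. The Klra2 window matched those of Klra4, Klra8 and Klra7 at 71.3%, 70.0% and 65.1%. PU.1 letters had 2 matches in Klra4, 2 in Klra8, 1 in Klra7 and 1 in Klra2, and were found in 23.2% of all 32851 upstream windows of this length. The letters TGTGGT of RUNX factors (14.1% of all windows) and TCACAC of T-box factors (12.3%) were searched on both strands, with their reverse complements ACCACA and GTGTGA, and were in none of these 4 windows. RefSeq lists a second start site for Klra7 (upstream window chr6:130231688-130231937), with no PU.1 match, and one for Klra8 (chr6:130129836-130130085), with 2. The windows shown are those that end at the gene's 5′ end in GENCODE.

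In NK-like cells, Klra4 stood at 809 and 710 CPM (UMIs of the gene per 1000000 UMIs of the class) in vehicle libraries 1 and 2, and at 1057, 979 and 1016 CPM in ginkgetin libraries 1, 2 and 3. Those 206 cells, 0.748% of all, held 86.6% of all Klra4 UMIs in the data. In ILC1-like cells Klra4 ranged from 3.76 to 45.1 CPM over the 6 libraries, below every NK-like value, and in endothelial-like cells, which should lack it, from 0 to 0.646 CPM. Klra8 in NK-like cells stood at 867 and 680 CPM in vehicle and at 648, 1067 and 901 CPM in ginkgetin libraries, and 78.4% of its UMIs lay there. Elsewhere its highest value was 64.8 CPM, in the ILC1-like cells of ginkgetin library 2.

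Klra7 had a wider distribution. Only 18.6% of its UMIs were in NK-like cells, where the 5 libraries ranged from 216 to 730 CPM. A larger part, 33.6%, was in the Cd8a+ Cd8b1-low cells, with 120, 156 and 687 CPM in the vehicle and 717, 315 and 494 CPM in the ginkgetin libraries. These ranges overlapped with the NK-like ones. In the Cd3+ Ncr1+ cells of vehicle library 3, Klra7 reached 1006 CPM while Klra8 stood at 24.1 CPM and Klra4 had no UMI, which allows up to 12.1 CPM. In the Cd8a+ Cd8b1-low cells, Klra4 (8 UMIs in all) and Klra8 (16 UMIs) had medians of 0 and 1.53 CPM over the 6 libraries, with highest values of 39.4 and 54.2 CPM, both in ginkgetin library 2.

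**Figure D1:**
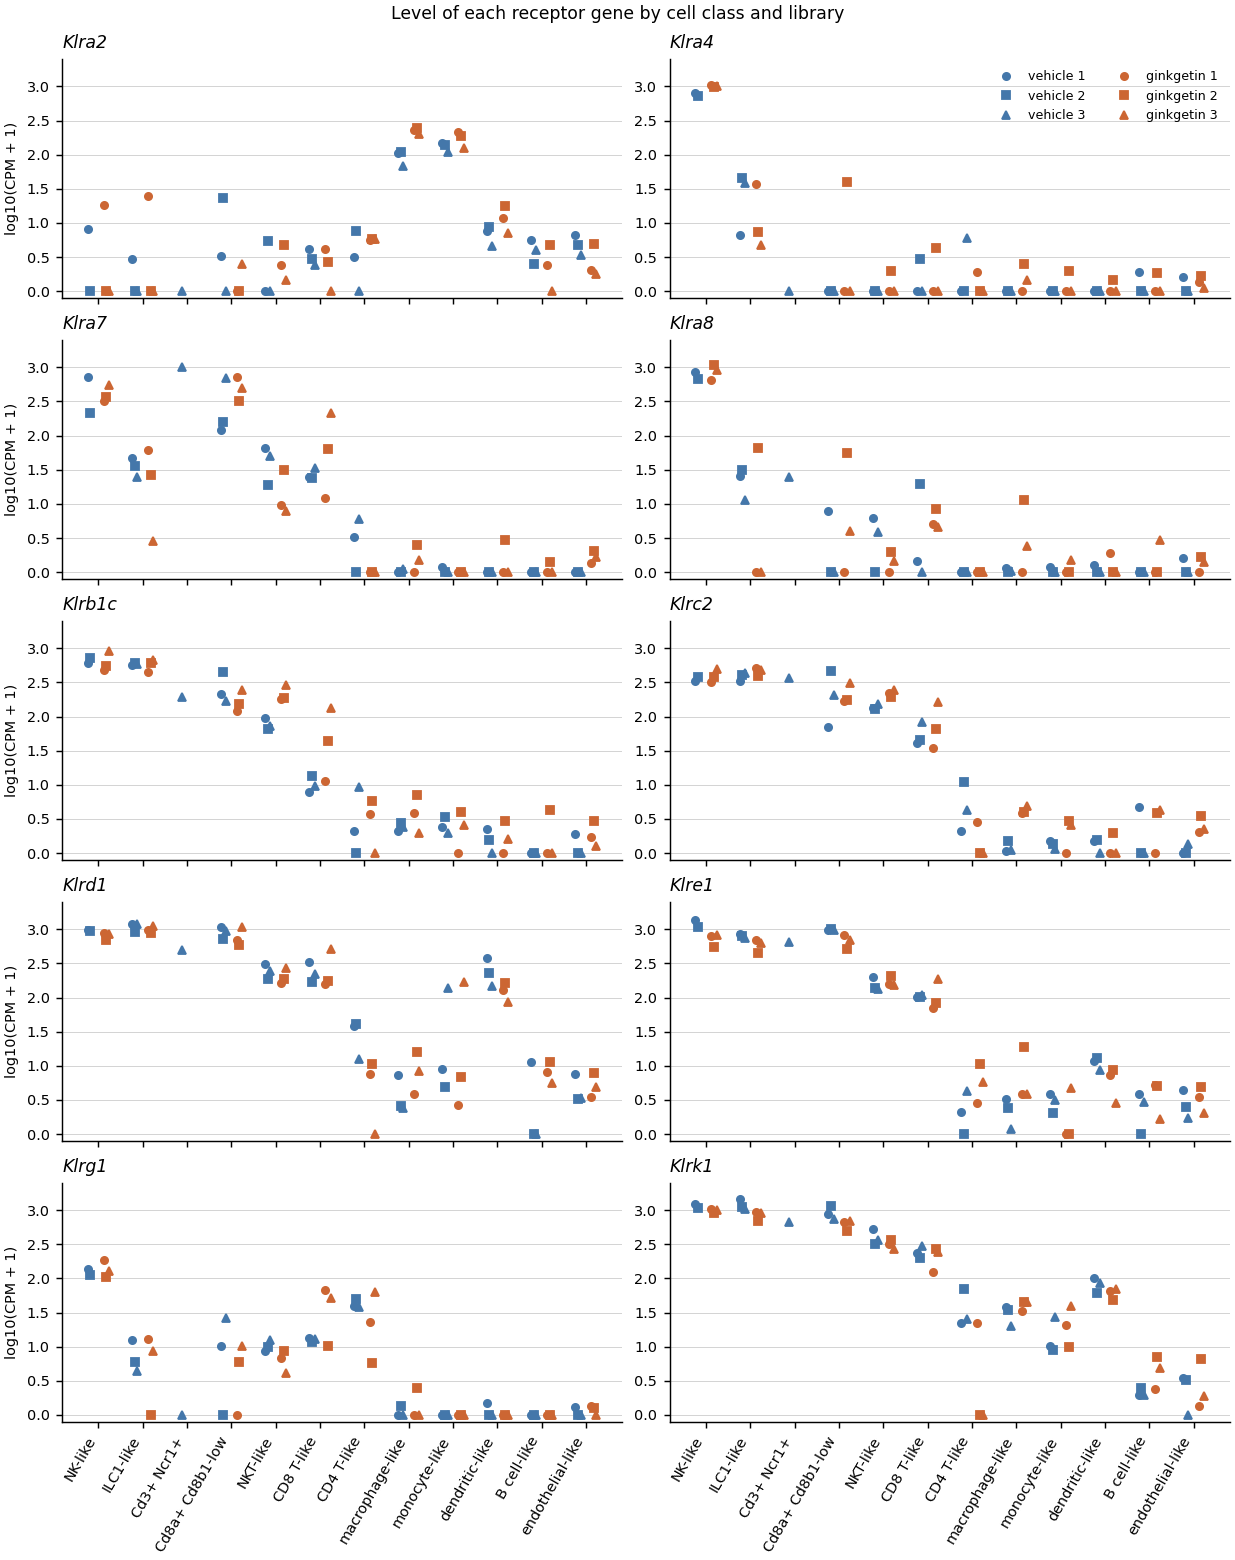
Level of each of the 10 receptor genes by cell class, as log10 of CPM plus 1, with 1 point per library (blue vehicle, orange ginkgetin; circles, squares and triangles are libraries 1, 2 and 3) for classes with at least 10 cells in the library. Klra4, Klra8 and Klrg1 are highest in NK-like cells, Klra2 in macrophage-like and monocyte-like cells, and Klra7, Klrb1c, Klrc2, Klrd1, Klre1 and Klrk1 are high in several lymphoid classes.

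Klrb1c, Klrd1, Klrc2, Klre1 and Klrk1 were read in NK-like, ILC1-like and Cd8a+ Cd8b1-low cells alike, whereas Klrg1 was highest in NK-like cells, and orders of classes below are descriptions without a test. Klrb1c, the gene of NK1.1, had a median of 607 CPM in NK-like and 595 CPM in ILC1-like cells, with overlapping libraries. Its median was 189 CPM in Cd8a+ Cd8b1-low, 138 CPM in NKT-like and 11.5 CPM in CD8 T-like cells. Because ILC1-like and NKT-like cells were more numerous, they held 34.1% and 29.3% of its UMIs and NK-like cells 14.3%.

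Klrd1 encodes CD94, the common partner of NKG2 receptors, and Klrc2 encodes the activating partner NKG2C. For Klrd1, ILC1-like cells (median 1039 CPM), NK-like cells (886 CPM) and Cd8a+ Cd8b1-low cells (828 CPM) overlapped, and NKT-like (213 CPM) and CD8 T-like cells (196 CPM) were lower. The order for Klrc2 was ILC1-like (419 CPM), NK-like (381 CPM), Cd8a+ Cd8b1-low (188 CPM), NKT-like (172 CPM) and CD8 T-like (54.8 CPM), with the libraries of each class overlapping those of the next. Klre1 encodes a receptor subunit that pairs with KLRI1 or KLRI2. Its medians were 892 CPM in Cd8a+ Cd8b1-low, 816 CPM in NK-like and 714 CPM in ILC1-like cells, all overlapping, against 156 CPM in NKT-like cells.

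Klrk1 (NKG2D, an activating receptor for stress-induced ligands) had a median of 1022 CPM in NK-like and 1000 CPM in ILC1-like cells, then 712 CPM in Cd8a+ Cd8b1-low, 342 CPM in NKT-like and 235 CPM in CD8 T-like cells. Klrg1, an inhibitory receptor for cadherins, was the rarest member, with 538 UMIs in all kept cells. It was highest in NK-like cells (104 to 187 CPM), above CD4 T-like cells (4.84 to 62.1 CPM) in every library. Its medians were 12.3 CPM in CD8 T-like, 7.71 CPM in NKT-like, 7.07 CPM in Cd8a+ Cd8b1-low and 6.27 CPM in ILC1-like cells. When cells were gated by marker UMIs in place of clusters, 9 of the 10 members kept the class with their highest median among the NK, ILC1, NKT, CD8 T and myeloid classes. Klrb1c moved from NK-like to ILC1-like cells, whose libraries overlapped.

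In NK-like cells the Ly49 genes were read in combinations. To compare cells at equal depth, each cell was thinned to 1000 UMIs (the median before thinning was 3098.5 UMIs in NK-like and 2638 in endothelial-like cells). Of the 206 NK-like cells, 69 then had no UMI of Klra4, Klra7 or Klra8, 59 had 1 of the 3 genes, 54 had 2 and 24 (11.7%) had all 3. Klra4 alone was read in 20 cells, Klra7 alone in 11 and Klra8 alone in 28. Without thinning, 55 of 206 cells (26.7%) held all 3 genes. By contrast, Klra7 was the sole gene of the trio in 99 of 461 Cd8a+ Cd8b1-low cells and in 31 of 47 Cd3+ Ncr1+ cells, and at that depth no such cell had all 3.

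In the NK-like cells thinned as above, a cell with a UMI of 1 Ly49 gene more often had a UMI of another. No pair passed after adjustment, and the differences were not the same under other thinning settings. Klra8 was read in 65.1% of NK-like cells with Klra4 and in 35.0% of those without, a mean difference over the 6 libraries of 30.5 ± 12.6 percentage points (SD, n = 6), positive in 6 of 6 libraries (17.1 to 45.1). For Klra7 and Klra8 the mean difference was 30.8 ± 19.6 points (SD, n = 6), for Klra4 and Klra7 20.2 ± 11.2, and for Klra4 and Klrc2 14.2 ± 11.5, each positive in 6 of 6 libraries. These values include the 9 NK-like cells of vehicle library 3, of which 4 had Klra4, and the highest Klra7 and Klra8 difference (64.3 points, vehicle library 2) rests on 1 cell with Klra7. An exact sign-flip permutation test over libraries (two-sided) gave p = 0.031 for each of these 4 pairs, the smallest it can give with 6 libraries, and an adjusted p of 0.0781 over the 10 pairs tested. Klra4 and Klrg1 went the other way, with a mean difference of -8.54 points and none of 6 libraries above 0 (exact permutation p = 0.0625, adjusted p = 0.104). The other 5 pairs had adjusted exact permutation p-values of 0.104 to 0.875, so no pair passed after adjustment. At 500 UMIs per cell the Klra7 and Klra8 difference was -1.22 points, and those of Klra4 with Klra7 and of Klra4 with Klrc2 were 7.79 and 2.48 points, each positive in 3 of 6 libraries. Klra4 with Klra8 stood at 19.4 points, positive in 5 of 6 libraries. Without thinning, Klra7 with Klra8 stood at 23.1, Klra4 with Klra7 at 18.1 and Klra4 with Klra8 at 32.4 points, each positive in 5 of 6 libraries. Klra4 with Klrc2 stood at 7.24 points, positive in 3 of 6 libraries. Each thinning was a single random draw, so depth and sampling cannot be told apart. Cells of a library share its depth and free RNA, and the part of remaining differences between cells in RNA content was not tested.

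**Figure D2:**
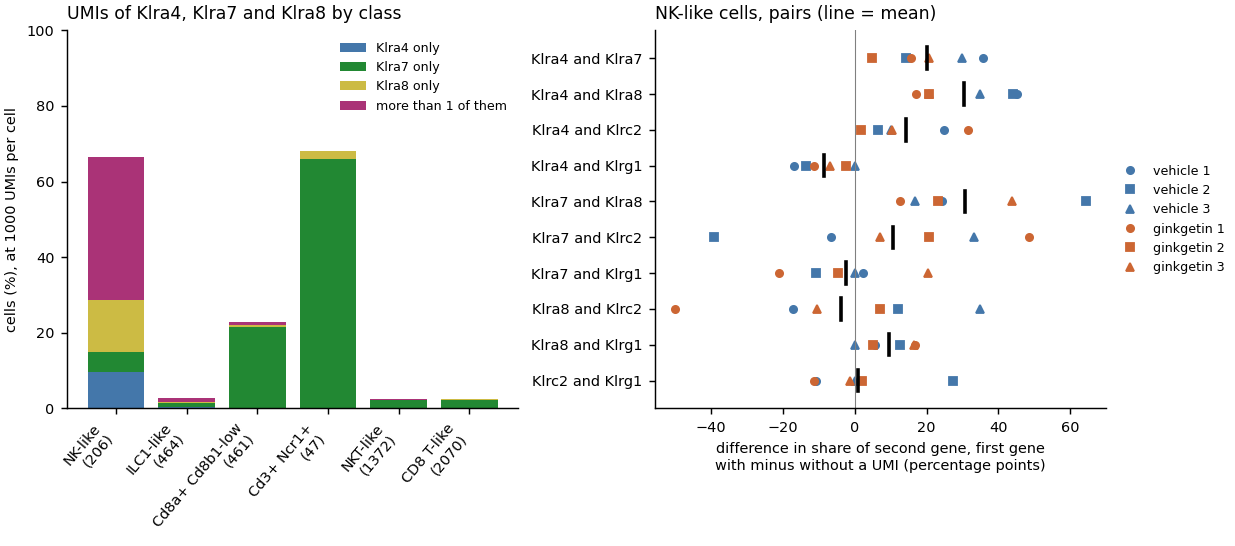
Left, percent of cells with UMIs of Klra4, Klra7 or Klra8 at 1000 UMIs per cell, stacked as 1 gene alone or more than 1 (number of cells in brackets). Right, for 10 gene pairs in NK-like cells, the share of cells with the second gene among cells with minus cells without the first, in percentage points, 1 point per library and a black line at the mean. NK-like cells mostly have Klra4 or Klra8, often together, and the unnamed Cd8a+ Cd8b1-low and Cd3+ Ncr1+ cells almost only Klra7.

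In the comparison of ginkgetin-treated with vehicle-treated mice, no member was called in NK-like cells. A call needed an adjusted p under 0.05 in edgeR's quasi-likelihood test and a fold over 2. Of 1975 genes tested in NK-like cells 1 was called (0.0506%), and of the 9 members tested 0 were called, 0 had an unadjusted p under 0.05, and DESeq2 called 0. The libraries of 1 member did not overlap with ginkgetin higher (12.1% of all genes tested) and those of 3 with ginkgetin lower (19.5% of all genes). The median log2 fold change of the tested members was 0.05, against 0.00 over all genes.

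The member above was Klra4, for which all 3 ginkgetin libraries (979 to 1057 CPM) exceeded both vehicle libraries, with a log2 fold change of 0.50 (SE 0.33, adjusted p = 0.58 in edgeR). The 9 NK-like cells of vehicle library 3, not tested, held 912 CPM of Klra4. Klre1 stood at 1380 and 1071 CPM in vehicle and at 801, 546 and 816 CPM in ginkgetin libraries, so it was lower in each ginkgetin library, with a log2 fold change of -0.70 (SE 0.34, adjusted p = 0.49 in edgeR). Klrd1 (975 and 937 CPM against 886, 690 and 846 CPM) and Klrk1 (1250 and 1071 CPM against 1022, 923 and 1016 CPM) were also lower in every ginkgetin library, by log2 fold changes under their standard errors (adjusted p = 0.87 and 0.89 in edgeR). Without ginkgetin library 2 the log2 fold changes were 0.48 for Klra4, -0.56 for Klre1, -0.11 for Klrd1, -0.15 for Klrk1 and 0.05 for Klra8, which was 0.26 with it. With a marker gate in place of clusters, these separations were lost. There Klra4 stood at 285 to 598 CPM in vehicle and 583 to 1071 CPM in ginkgetin libraries, and Klre1 at 763 to 1009 and 317 to 839 CPM. Klrd1 stood at 634 to 1262 and 376 to 1044 CPM, and Klrk1 at 724.5 to 1017 and 602 to 1071 CPM.

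The other members overlapped between the groups. Klra8 had a log2 fold change of 0.26 (SE 0.37), Klrc2 of 0.26 (SE 0.34), Klrg1 of 0.16 (SE 0.41), Klrb1c of 0.05 (SE 0.37) and Klra7 of -0.13 (SE 0.48). At 1000 UMIs per cell, Klra4 was read in 26.6% ± 3.4 of vehicle (SD, n = 2) and 45.8% ± 4.2 of ginkgetin NK-like cells (SD, n = 3), and Klra8 in 34.8% ± 4.5 and 52.2% ± 5.7. Without thinning the shares were 41.3% and 53.8% for Klra4 and 46.9% and 62.3% for Klra8. Neither thinned share of Klra4 or Klra8 exceeded 0.0997% in the endothelial-like cells of any library. Klrd1 went the other way, from 65.7% ± 0.19 to 52.4% ± 3.9, as did Klrk1, from 73.6% ± 11.4 to 58.3% ± 2.0, against at most 0.598% and 0.632% of endothelial-like cells. Without thinning the shares were 89.2% and 86.2% for Klrd1 and 96.96% and 88.6% for Klrk1, and at 500 UMIs per cell their differences were 1.33 and -0.36 points, so these 2 depended on depth. Exact permutation tests at 1000 UMIs gave p = 0.1 for each of the 4 genes, the smallest that 2 against 3 libraries allow, and an adjusted p of 0.714 over 50 tests of members by class.

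Sums of marker lists differed between the groups in NK-like cells. The 7 ILC1 markers, among them Ncr1, which is also an NK marker, summed to 1546 and 1616 CPM in the vehicle and to 738 to 937 CPM in the ginkgetin libraries. In NK-like cells Ncr1 had a median of 385 CPM, against 28.9 CPM for Il7r and 0 for Cd200r1 and Cxcr6. This sum is therefore no measure of ILC1 among the NK-like cells. The 3 T-lineage markers held by the tables summed to 92.7 and 311 CPM against 34.1 to 40.6 CPM, and Cd200r1, which marks ILC1, was read in 0.971% of NK-like cells. The 9 macrophage markers summed to 205.9 and 209.5 CPM against 34.1 to 112 CPM, the 6 endothelial markers to 51.5 and 93.9 CPM against 136 to 826 CPM, and the 4 B cell markers had no UMI in vehicle and 11.1 to 88.2 CPM in ginkgetin libraries. Their part in the differences of Klra4, Klre1, Klrd1 and Klrk1 was not tested.

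In ILC1-like cells, Klre1 and Klrk1 were lower in every ginkgetin library but were not called. Klrk1 stood at 1439, 1108 and 1051 CPM in vehicle libraries 1, 2 and 3 and at 950, 687 and 893 CPM in ginkgetin libraries 1, 2 and 3, a log2 fold change of -0.62 (SE 0.31, adjusted p = 0.50 in edgeR). Klre1 stood at 847, 792 and 731 CPM in the vehicle and at 697, 441 and 622 CPM in the ginkgetin libraries, a log2 fold change of -0.54 (SE 0.30, adjusted p = 0.53 in edgeR). For both genes the lowest vehicle library was above the highest ginkgetin library, and the lowest value was that of ginkgetin library 2. Without that library the log2 fold changes were -0.60 (SE 0.36) for Klrk1 and -0.48 (SE 0.34) for Klre1. With a marker gate in place of clusters, Klrk1 overlapped (945 to 1341 CPM in vehicle, 645.5 to 954 CPM in ginkgetin libraries). Klre1 (644 to 915 against 350 to 625 CPM) and Klrd1 (1097 to 1152 against 922 to 1085 CPM) were lower without overlap there.

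Across all genes in ILC1-like cells, 0 of 4365 were called (0%) by edgeR, 457 had an unadjusted p under 0.05 and DESeq2 called 9. With the replicate number as a block, 54 were called, none of them a member. Of the 7 members tested, 0 were called by any of these, 0 had an unadjusted p under 0.05 without the block, and 2 had non-overlapping libraries with ginkgetin lower (7.72% of all genes tested), while none was higher without overlap (9.14% of all genes). The median log2 fold change was -0.54 for the tested members against 0.00 for all genes. Klrb1c (567, 612 and 581 CPM against 445, 609 and 683 CPM), Klrd1 (1185, 918 and 1188 CPM against 974, 888 and 1104 CPM) and Klrc2 (334, 401 and 438 CPM against 517, 395 and 481 CPM) overlapped between groups.

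Markers moved here too. The 7 ILC1 markers summed to 4693 to 6063 CPM in vehicle and 2702 to 4240 CPM in ginkgetin libraries, and the 8 NK markers to 915 to 1454 CPM and 875 to 4656 CPM, so the ILC1-like cells held less of the ILC1 markers in ginkgetin-treated mice. The macrophage markers summed to 140 to 238 CPM against 48.1 to 123 CPM, the endothelial markers to 106 to 120 CPM against 164 to 849 CPM and the B cell markers to 1.70 to 11.5 CPM against 12.02 to 227 CPM. Their part in the lower Klre1 and Klrk1 was not tested. ILC1-like cells of the groups lay largely in different clusters. Of libraries 1 and 2, one cluster held 142 vehicle cells and no ginkgetin cell and the other 38 vehicle and 90 ginkgetin cells. Of libraries 3, one held 97 vehicle and 3 ginkgetin cells and the other 94 ginkgetin cells, 46.8% of them with a UMI of a Cd3 gene, against 14.0% to 15.5% in the other 3 clusters. A change within cells and a change in the kinds of cells under the name cannot be told apart. Without ginkgetin library 3 the log2 fold changes were -0.52 (SE 0.29) for Klrk1 and -0.45 (SE 0.29) for Klre1. In the Cd8a+ Cd8b1-low cells, which were not tested, Klre1 stood at 967, 1004 and 966 CPM in vehicle and 819, 507 and 689 CPM in ginkgetin libraries. These cells too lay in different clusters by group. Of libraries 1 and 2, one cluster of 158 cells held 2 ginkgetin cells and the other of 163 held 1 vehicle cell, and of libraries 3, one held 18 vehicle cells and the other 123 ginkgetin cells, with none of the other group in either.

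**Figure D3:**
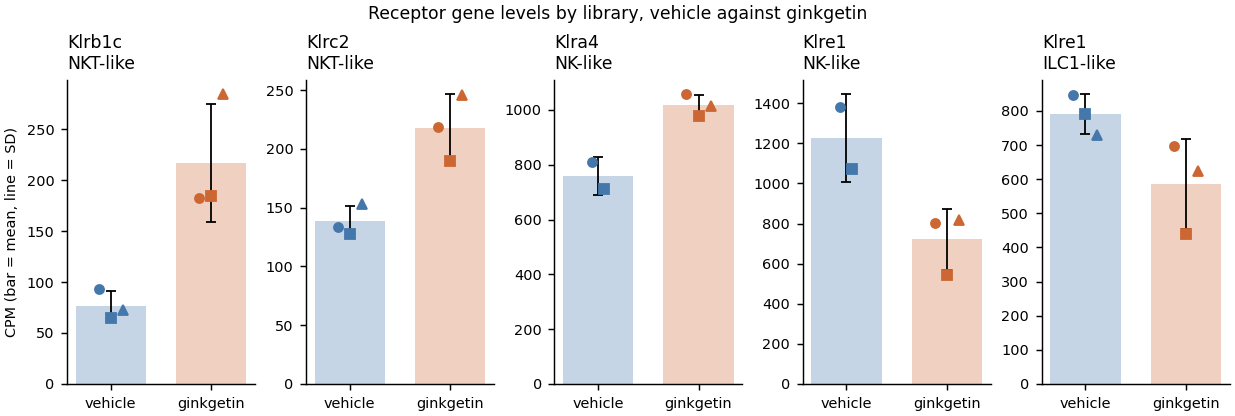
CPM by library of 4 members in classes where their vehicle and ginkgetin libraries did not overlap, bars showing the mean and lines the SD (n = 3 libraries, 2 for vehicle in NK-like cells; circles, squares and triangles are libraries 1, 2 and 3). Klrb1c and Klrc2 in NKT-like cells and Klra4 in NK-like cells are higher, and Klre1 in NK-like and ILC1-like cells lower, in every ginkgetin library. None was called by edgeR without a block, and Klrb1c was called by DESeq2 and with the replicate block. With marker gates in place of clusters, Klrc2 in NKT-like cells and Klra4 and Klre1 in NK-like cells overlapped between the groups.

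In NKT-like cells, Klrb1c and Klrc2 were higher in every ginkgetin library but were not called by the main test. A marker gate in place of clusters held 286 cells, 231 of them NKT-like by cluster. There Klrc2 overlapped between the groups (56.7 to 139 CPM in vehicle, 120 to 222 CPM in ginkgetin libraries). Klrb1c (34.0 to 39.0 against 146 to 287 CPM) and Klre1 (101 to 117 against 149 to 158 CPM) did not. The values below are those of the clusters. Klrb1c stood at 93.2, 65.1 and 72.4 CPM in vehicle libraries 1, 2 and 3 and at 182, 185 and 284 CPM in ginkgetin libraries 1, 2 and 3. All 3 ginkgetin libraries were above all vehicle libraries, and the ratio of the means was 2.82. The log2 fold change was 1.43 (SE 0.24), with an unadjusted p of 0.000282 and an adjusted p of 0.22 in edgeR, so it was not called. The call depended on the model, since the adjusted p was 0.0101 in DESeq2, 0.0146 in edgeR with the replicate number as a block and 0.0533 in edgeR with libraries 1 and 2 alone. Leaving out 1 library at a time gave log2 fold changes of 1.30 to 1.63, and 1.46 (SE 0.27) without ginkgetin library 2.

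Klrc2 was also higher in every ginkgetin library of NKT-like cells, at 218, 190 and 246 CPM against 133, 128 and 154 CPM, with a log2 fold change of 0.64 (SE 0.22, adjusted p = 0.43 in edgeR), and 0.67 (SE 0.24) without ginkgetin library 2. Klra7 stood at 64.7, 17.97 and 49.3 CPM in vehicle and 8.74, 30.6 and 6.74 CPM in ginkgetin libraries, overlapping through vehicle library 2 and ginkgetin library 2 (log2 fold change -1.55, SE 0.69, adjusted p = 0.53 in edgeR). Without ginkgetin library 2 its log2 fold change was -2.67 (SE 0.62, adjusted p = 0.65 in edgeR). Klrd1, Klre1 and Klrk1 overlapped, with log2 fold changes of -0.29, 0.13 and -0.35, and of -0.29, -0.10 and -0.51 without that library. At 1000 UMIs per cell, Klrb1c was read in 8.20% ± 0.89 of vehicle and 19.6% ± 3.4 of ginkgetin NKT-like cells and Klrc2 in 10.9% ± 1.7 and 18.9% ± 1.4 (SD, n = 3 each), against at most 0.266% and 0.293% of endothelial-like cells in any library. The median depths before thinning were 3311 and 2638 UMIs. Without thinning the shares were 17.97% and 49.6% for Klrb1c and 29.5% and 42.5% for Klrc2. An exact permutation test gave p = 0.1 for each, the smallest that 3 against 3 allow, and an adjusted p of 0.714.

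Over all genes in NKT-like cells, 0 of 6131 were called (0%), 568 had an unadjusted p under 0.05, and DESeq2 called 27 and the fit with the replicate block 59. Of the 6 members tested edgeR called 0, while DESeq2 and the fit with the replicate block called 1 each (Klrb1c). In the edgeR test without the block, 2 members (Klrb1c and Klrc2) had an unadjusted p under 0.05 (9.26% of all genes). The same 2 had non-overlapping libraries with ginkgetin higher (6.07% of all genes), and none of the 6 was lower without overlap (7.01% of all genes). Klrg1, which did not pass the filter on low counts, stood at 7.77, 8.98 and 11.6 CPM in vehicle and at 5.83, 7.66 and 3.15 CPM in ginkgetin libraries, lower without overlap on 4 to 8 UMIs per library. The tested members' median log2 fold change was -0.08 against 0.01 over all genes. The 8 NK markers were near 0, at 20.2 to 81.1 CPM in vehicle and 18.9 to 70.1 CPM in ginkgetin libraries, and Cma1 and S1pr5 had no UMI in any NKT-like cell. The 7 ILC1 markers summed to 1523 to 1973 CPM in vehicle and 1101 to 1610 CPM in ginkgetin libraries. Other lists did not overlap between the groups. The T-lineage markers summed to 2354 to 2625 CPM in vehicle and 2075 to 2251 CPM in ginkgetin libraries, the macrophage markers to 218 to 252 CPM and 41.8 to 116 CPM, and the endothelial markers to 40.6 to 76.4 CPM and 133 to 823 CPM. Their part in Klrb1c and Klrc2 was not tested. NKT-like clusters were largely specific to single libraries, so a change within cells and a change in the kinds of cells gathered under the name cannot be told apart.

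In CD8 T-like cells, Klrb1c, Klrg1 and Klra7 were high in some ginkgetin libraries only. Klrb1c stood at 6.88, 12.6 and 8.76 CPM in vehicle and at 10.3, 43.3 and 131 CPM in ginkgetin libraries, a log2 fold change of 2.48 (SE 0.69, adjusted p = 0.63 in edgeR), with ginkgetin library 1 inside the vehicle range. Klrg1 stood at 12.4, 10.6 and 12.2 CPM in vehicle and at 67.2, 9.17 and 50.8 CPM in ginkgetin libraries (log2 fold change 1.77, SE 0.57, adjusted p = 0.64 in edgeR), with ginkgetin library 2 below all vehicle libraries. Klra7 stood at 23.8, 23.2 and 32.6 CPM in vehicle and at 11.4, 63.3 and 211 CPM in ginkgetin libraries (log2 fold change 1.57, SE 0.70, adjusted p = 0.69 in edgeR).

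These values overlapped between groups, and the highest came from different libraries for different genes. With a marker gate in place of clusters, Klra7 did not overlap (15.7 to 34.3 CPM in vehicle, 36.9 to 229 CPM in ginkgetin libraries), whereas Klrb1c and Klrg1 did. The 8 NK markers summed to 518 to 1053 CPM in vehicle and 171 to 2145 CPM in ginkgetin libraries, and ginkgetin library 3 held only 48 CD8 T-like cells. Without overlap, the T-lineage markers summed to 2732 to 3089 CPM in vehicle and 1325 to 2322 CPM in ginkgetin libraries, the macrophage markers to 161 to 235 CPM and 50.8 to 80.8 CPM, the endothelial markers to 38.5 to 59.0 CPM and 174 to 696 CPM, and the B cell markers to 7.80 to 10.6 CPM and 18.2 to 44.2 CPM. Their part in the high values was not tested. Of 7131 genes 0 were called (0%), 504 had an unadjusted p under 0.05, DESeq2 called 20 and the fit with the replicate block 4. Of the 7 members tested 0 were called by any of the 3, 2 had an unadjusted p under 0.05 (7.07% of all genes) and none had non-overlapping libraries (3.6% of all genes were higher and 7.14% lower without overlap). The median log2 fold change was 0.49 for the members tested and 0.02 for all genes. CD8 T-like clusters were also largely specific to libraries. Of the 48 cells of ginkgetin library 3, 35 lay in a cluster led by Cx3cr1, Zeb2 and Gzma, against 22 of 432 in vehicle library 3. Of the 309 cells of ginkgetin library 2, 266 lay in the cluster led by endothelial genes, and 177 of the 343 of ginkgetin library 1 lay in another. Changes within cells and in the kinds of cells cannot be told apart. Without ginkgetin library 2 the log2 fold changes were 2.42 (SE 0.86) for Klrb1c, 2.23 (SE 0.34) for Klrg1, 1.56 (SE 0.89) for Klra7 and -0.66 (SE 0.27) for Klrk1, which was -0.13 (SE 0.39) with it. Without ginkgetin library 1 the log2 fold change of Klrg1 was 0.93 (SE 0.52), and without ginkgetin library 3 that of Klra7 was 0.82 (SE 0.65). Leaving out 1 library at a time gave log2 fold changes of 1.87 to 2.98 for Klrb1c.

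No gene of the lists around these receptors was called in the lymphoid classes by edgeR without a block. Of all genes, 1 of 1975 was called in NK-like cells (0.0506%), 0 of 4365 in ILC1-like, 0 of 6131 in NKT-like and 0 of 7131 in CD8 T-like cells. The lack of calls is therefore not particular to the lists. The 5 lists described were the other Klr genes (16 in the tables), adaptors and proximal signalling (20), ligands (11), other NK receptors (14) and NK development and maturation (20). In NK-like cells 0 of 8, 0 of 11, 0 of 4, 0 of 4 and 0 of 10 tested genes were called, with median log2 fold changes of -0.23, 0.01, -0.06, -0.01 and 0.41 against 0.00 over all genes. In ILC1-like cells 0 of 6, 0 of 18, 0 of 5, 0 of 9 and 0 of 13 were called, in NKT-like cells 0 of 6, 0 of 16, 0 of 5, 0 of 5 and 0 of 14, and in CD8 T-like cells 0 of 6, 0 of 17, 0 of 6, 0 of 10 and 0 of 18. Over the 5 lists, 4 of 37 genes had an unadjusted edgeR p under 0.05 in NK-like cells (11.2% of all genes), 7 of 51 in ILC1-like cells (10.5%), 8 of 46 in NKT-like cells (9.26%) and 10 of 57 in CD8 T-like cells (7.07%). Some tested genes passed the filter on low counts through 1 group alone. These were Cd160 (vehicle), Inpp5d and Klra1 in NK-like, Klra3 in NKT-like and Cx3cr1, Lat2 and S1pr5 in CD8 T-like cells (ginkgetin for all but Cd160). Nothing is read from the counts of these classes. DESeq2 called 0 of the 37 list genes tested in NK-like, 1 of 51 in ILC1-like, 1 of 46 in NKT-like and 1 of 57 in CD8 T-like cells.

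In NK-like cells, Klra3 (Ly49C, an inhibitory receptor) had means of 329 CPM in vehicle and 142 CPM in ginkgetin libraries (log2 fold change -1.10, SE 0.39, adjusted p = 0.39 in edgeR, and -0.92 without ginkgetin library 2). Klri2, a partner of Klre1, had means of 366 and 346 CPM and Klrc1 (NKG2A, the inhibitory partner of CD94) of 338 and 191 CPM. Tyrobp, the adaptor of Ly49D and Ly49H, had means of 3220 and 2808 CPM. Cd160 had means of 220 and 18.2 CPM (log2 fold change -3.30, SE 0.51, adjusted p = 0.0762 in edgeR) and passed the filter on low counts through the vehicle libraries alone. Zeb2, a maturation factor of NK cells, had means of 127 and 393 CPM (1.67, SE 0.42, adjusted p = 0.38).

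Klra9, a further Ly49 gene, was called in neither ILC1-like nor NKT-like cells by edgeR without a block, and the difference between these classes was not tested. In ILC1-like cells its means were 19.8 CPM in vehicle and 253 CPM in ginkgetin libraries (log2 fold change 3.46, SE 0.46, adjusted p = 0.0565 in edgeR), and in NKT-like cells 110 and 31.0 CPM (-1.86, SE 0.52, adjusted p = 0.40 in edgeR), without overlap in either. The call depended on the model, since the adjusted p of Klra9 was 5.79e-05 in ILC1-like and 0.0344 in NKT-like cells in edgeR with the replicate block, and 2.87e-07 and 0.0388 in DESeq2. Without ginkgetin library 2 its log2 fold changes in edgeR were 3.07 and -2.02. Of its transcript-end windows 11.8% were shared with Klra10, Klra11-ps, Klra3 and Klra8. Klrc1, of whose windows 21.5% were shared with Klrc2, had means of 446 and 452 CPM in ILC1-like and of 108 and 176 CPM in NKT-like cells (log2 fold change 0.65, SE 0.24, adjusted p = 0.48 in edgeR). Hcst, the adaptor of NKG2D, had means of 668 and 1004 CPM in NKT-like cells (0.59, SE 0.34, adjusted p = 0.62). In CD8 T-like cells, Cx3cr1, a chemokine receptor gene of effector cells, had means of 5.24 and 45.3 CPM (2.92, SE 0.41, adjusted p = 0.37) and passed the filter on low counts through the ginkgetin libraries alone.

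**Figure D4:**
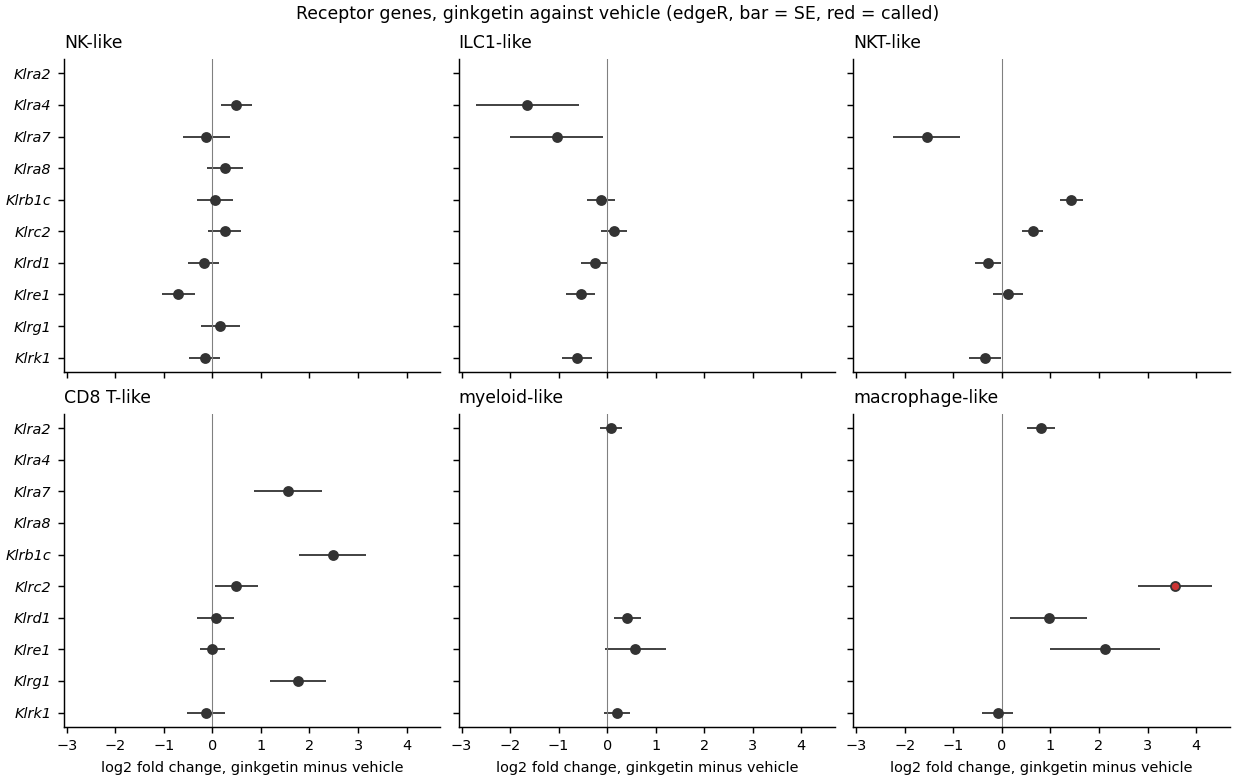
Log2 fold change, ginkgetin over vehicle, with its standard error from edgeR for each tested member in 6 classes. Red marks the only called value, Klrc2 in macrophage-like cells, which rests on 17 UMIs and passed the filter on low counts through the ginkgetin libraries alone. Klrb1c lies at 1.43 in NKT-like and at 2.48 in CD8 T-like cells without a call.

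Myeloid cells carried 3 of the members. Of all Klra2 UMIs 92.8% were in myeloid-like cells, 54.1% in macrophage-like and 37.2% in monocyte-like cells. Klra2 had a median of 154 CPM in macrophage-like cells, overlapping with 141 CPM in monocyte-like cells, and both were above dendritic-like cells (3.53 to 16.8 CPM). Klrd1 was high in dendritic-like cells (median 155 CPM) and in the monocyte-like cells of the libraries numbered 3, and 32.2% of its UMIs were myeloid. Klrk1 had 21.3% of its UMIs in myeloid-like cells, with a median of 66.8 CPM in dendritic-like cells.

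Lymphocyte transcripts were counted beside the receptor genes. UMIs of lymphocyte genes were found in 9.80% of myeloid-like cells with Klra2 and in 10.6% of those without it, and in 12.6% of dendritic-like cells with Klrd1 and 15.5% of those without. They were more frequent in macrophage-like cells with Klrd1 (23.7%) than in those without (9.99%), and in macrophage-like cells with Klre1 (21.6%) than in those without (10.2%). Over all myeloid-like cells the shares were 11.2% with and 10.0% without Klrk1 and 27.6% with and 10.2% without Klrc2. The part of lymphocyte RNA in the myeloid values of these genes was not tested. Endothelial-like cells had 0.772 to 5.62 CPM of Klra2 and 2.28 to 6.85 CPM of Klrd1 in the 6 libraries. Cd3e, a T cell receptor subunit gene, was read in 1.19% of macrophage-like cells, with 0.332 to 16.6 CPM in the 6 libraries.

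Klra2 had higher CPM in every ginkgetin library, but in all myeloid-like cells the direction of its log2 fold change depended on the processing. In all myeloid-like cells it stood at 97.4, 98.7 and 73.1 CPM in vehicle and at 107, 103 and 118 CPM in ginkgetin libraries, without overlap, but the log2 fold change was 0.08 (SE 0.23, adjusted p = 0.88 in edgeR). It was -0.12 to 0.19 without 1 library (0.08 without ginkgetin library 2), -0.02 without a gene filter and -0.0017 with libraries 1 and 2 alone. With a marker gate in place of clusters, Klra2 overlapped between the groups (65.3 to 90.9 CPM in vehicle, 79.9 to 116 CPM in ginkgetin libraries). Of 11174 genes 678 were called (6.07%), and of the 4 members tested (Klra2, Klrd1, Klre1 and Klrk1) 0 were called, 0 had an unadjusted p under 0.05, and neither DESeq2 nor the replicate block called any. Of these 4, only Klra2 did not overlap with ginkgetin higher, where 19.9% of all genes did so, and none was lower without overlap (9.43% of all genes). Macrophage-like cells made up very different parts of the myeloid-like cells of single libraries, 104 of 347 in ginkgetin library 1 and 548 of 846 in ginkgetin library 3, so the macrophage-like, monocyte-like and dendritic-like cells were fitted separately, a choice made after the data had been seen.

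In macrophage-like cells Klra2 stood at 104, 108 and 66.8 CPM in vehicle and at 227, 248 and 201 CPM in ginkgetin libraries, so all ginkgetin libraries were above all vehicle libraries. The ratio of the means was 2.42. In this class, however, the median ratio of mean CPM over all genes was 0.45 on the log2 scale in favour of ginkgetin, while after TMM scaling it was 0.02. On that TMM scale, Klra2 had a log2 fold change of 0.81 (SE 0.29, adjusted p = 0.11 in edgeR) and was not called. With cells kept at 250 to 5000 UMIs, the filter the authors describe, it was 0.52 (SE 0.28). With the replicate block the log2 fold change was 0.84 (SE 0.18, adjusted p = 0.00624 in edgeR), and the fold stayed under 2. Without ginkgetin library 2 it was 0.71 (SE 0.35). Of the 5 members tested in this class, 2 had an unadjusted p under 0.05 (31.9% of all genes), 3 had ginkgetin libraries higher without overlap (32.8% of all genes) and none lower (7.84%). Nothing is read from these counts, since 2 of the 5, Klrc2 and Klre1, passed the filter on low counts through the ginkgetin libraries alone.

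Macrophage-like cells of the groups lay in part in different clusters. Of libraries 1 and 2, one cluster held 638 and 383 vehicle and 89 and 203 ginkgetin cells and the other 550 and 324 vehicle and 15 and 38 ginkgetin cells. Of libraries 3, one held 375 vehicle and 4 ginkgetin cells, another 695 vehicle and 35 ginkgetin cells and the last 10 vehicle and 506 ginkgetin cells. A change within cells and a change in the kinds of cells cannot be told apart. The 6 endothelial markers summed to 81.4 to 108 CPM in vehicle and 410 to 1135 CPM in ginkgetin macrophage-like cells, and their part in Klra2 was not tested.

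Macrophage subsets were split by UMIs of markers, and their CPM values below carry no correction for the shift of all genes described above. Cells with Clec4f, Timd4 or Marco and without Trem2 or Gpnmb, the marker pattern of resident Kupffer cells, held 120, 152 and 99.7 CPM in vehicle and 193, 224 and 219 CPM in ginkgetin libraries. Cells with Trem2 or Gpnmb, markers of lipid-associated macrophages, and without the first 3 held 92.2, 80.2 and 59.4 CPM in vehicle and 206, 277 and 187 CPM in ginkgetin libraries, the latter from only 10, 18 and 24 cells. Neither split was tested. Monocyte-like cells overlapped, at 145, 138 and 107 CPM in vehicle and 217, 186 and 125 CPM in ginkgetin libraries (log2 fold change 0.37, SE 0.35, adjusted p = 0.67 in edgeR, 0.30 without ginkgetin library 2 and 0.07 without ginkgetin library 1, with 0 of 8773 genes called, 1213 at an unadjusted p under 0.05 and 129 called by DESeq2). Of the 3 members tested there, none was called by either tool and none had non-overlapping libraries (9.97% of all genes were higher and 8.46% lower without overlap). At 1000 UMIs per cell, 8.93% ± 0.61 of vehicle and 14.3% ± 1.6 of ginkgetin myeloid-like cells had a Klra2 UMI (SD, n = 3 each; exact permutation p = 0.1, adjusted p = 0.714), against at most 0.568% of endothelial-like cells, with median depths of 7684 and 2638 UMIs. Without thinning the order was the opposite, 44.2% in vehicle and 37.0% in ginkgetin libraries, where vehicle libraries had medians of 6628 to 12330 and ginkgetin libraries of 4453 to 5287 UMIs per cell. Thinning left out 60 myeloid-like cells, 58 of them in ginkgetin library 3.

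**Figure D5:**
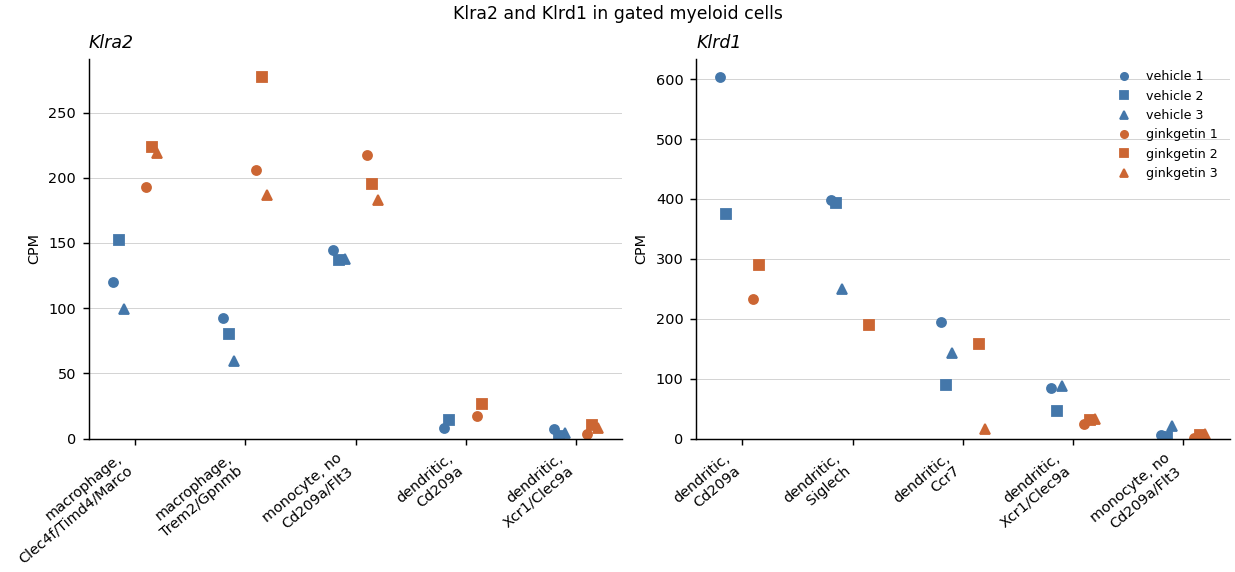
CPM of Klra2 and Klrd1 in myeloid subsets gated by marker UMIs, 1 point per library with at least 10 cells (blue vehicle, orange ginkgetin; circles, squares and triangles are libraries 1, 2 and 3). Klra2 lies in macrophage and monocyte subsets and is higher in ginkgetin libraries of both macrophage subsets. Klrd1 lies in dendritic subsets, and the monocyte subset shown beside them has neither Cd209a nor Flt3.

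In dendritic-like cells the mean of Klrd1 was lower in ginkgetin libraries, with overlap between the groups. Klrd1 stood at 376, 231 and 147 CPM in vehicle and at 128, 164 and 84.0 CPM in ginkgetin libraries, with ginkgetin library 2 above vehicle library 3. The log2 fold change was -0.98 (SE 0.46, adjusted p = 0.40 in edgeR), and with the replicate block -0.96 (SE 0.22, adjusted p = 0.0311 in edgeR), just under a fold of 2. Of 8572 genes 0 were called (0%), with 1158 at an unadjusted p under 0.05 and 42 called by DESeq2. Of the 4 members tested there, none was called by either tool, and all overlapped between the groups (8.12% of all genes were higher and 9.61% lower without overlap). Without vehicle library 1 the log2 fold change of Klrd1 was -0.56 (SE 0.48), and without ginkgetin library 2 it was -1.21 (SE 0.57). The endothelial markers summed to 121 to 160 CPM in vehicle and 327 to 831.5 CPM in ginkgetin dendritic-like cells. The macrophage markers summed to 229 to 551 CPM and 155 to 226.5 CPM. Their part in Klrd1 was not tested.

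By subset, cells with Cd209a, a marker of one kind of conventional dendritic cell, held 604 and 374 CPM of Klrd1 in vehicle libraries 1 and 2 and 232 and 290 CPM in ginkgetin libraries 1 and 2. Those with Xcr1 or Clec9a, which mark cross-presenting dendritic cells, held 84.7, 46.8 and 88.1 CPM in vehicle and 24.9, 31.3 and 33.2 CPM in ginkgetin libraries, without overlap. In cells with Siglech, a plasmacytoid marker, Klrd1 stood at 398, 393 and 250 CPM in vehicle and 190 CPM in the 1 ginkgetin library with enough cells. The high Klrd1 of the monocyte-like class in vehicle library 3 (135 CPM) and ginkgetin library 3 (169 CPM) lay in cells with Cd209a or Flt3, at 427 and 322 CPM, against 21.6 and 7.63 CPM in the rest of that class.

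Other members were rare in myeloid cells. In macrophage-like cells, 1045 of 10138 genes were called (10.3%), and of the 5 members tested Klrc2 was the only one called, on 17 UMIs. Klrc2 and Klre1 passed the filter only where they were high, so that their tested folds could only be upward and their calls are no support for a difference. Klrc2 values were 0.0841, 0.516 and 0.111 CPM in vehicle and 2.91, 3.02 and 3.86 CPM in ginkgetin libraries, with 1 to 8 UMIs in each (log2 fold change 3.57, SE 0.77, adjusted p = 0.0299 in edgeR). The adjusted p was 0.0931 without ginkgetin library 1, 0.124 without ginkgetin library 2 and 0.0805 with no filter on genes. It did not pass the filter, and so was not tested, with all cells kept, without the highest doublet scores, at 250 to 5000 UMIs, with libraries 1 and 2 alone, without any 1 vehicle library or without ginkgetin library 3. Klre1 stood at 2.27, 1.38 and 0.166 CPM in vehicle and 2.91, 18.1 and 2.90 CPM in ginkgetin libraries (log2 fold change 2.12, SE 1.14, adjusted p = 0.25 in edgeR), and 0.60 (SE 1.28) without ginkgetin library 2. With the replicate block its adjusted p was 0.0160.

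T-lineage markers moved with both genes in macrophage-like cells. All 3 were above 0 in every library and summed to 1.55 to 7.83 CPM in vehicle and 13.5 to 46.8 CPM in ginkgetin libraries. Their part in Klrc2 and Klre1 was not tested. Klrk1, in contrast, overlapped, at 37.5, 34.1 and 19.2 CPM in vehicle and 32.0, 43.8 and 44.0 CPM in ginkgetin libraries (log2 fold change -0.09, SE 0.32).

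By edgeR, genes of the lists were called in the myeloid-like and macrophage-like cells, where calls were common, and in neither the monocyte-like nor the dendritic-like cells. Over the 5 lists 8 of 54 genes were called in myeloid-like cells (6.07% of all genes) and 10 of 44 in macrophage-like cells (10.3% of all genes). These calls depended on single libraries. Without vehicle library 1, vehicle library 2 or ginkgetin library 2, 0 genes of the whole table were called in either class, and in myeloid-like cells also 0 without ginkgetin library 1, 7 at 250 to 5000 UMIs and 9 with gates, although 1953 to 3295 genes had an unadjusted p under 0.05 in the fits without a call. In the fit of all libraries in myeloid-like cells, 1 of 6 other Klr genes fell (Klra3, from 3.73 to 0.844 CPM, log2 fold change -2.55, adjusted p = 0.0373 in edgeR), 2 of 17 adaptor and signalling genes rose (Plcg1, from 2.54 to 8.27 CPM, and Zap70, a kinase gene of T and NK cells, from 0.597 to 2.37 CPM), 1 of 7 ligands rose (Cdh1, the E-cadherin bound by KLRG1, from 2.18 to 9.34 CPM, 1.85, adjusted p = 0.0379), 1 of 8 other NK receptors fell (Fcgr3, an Fc receptor also of myeloid cells, from 429 to 161 CPM, -1.61, adjusted p = 0.0260), and 3 of 16 maturation genes rose, among them Spn and Tnfsf10. In the same myeloid-like cells the 3 T-lineage markers summed to 1.79 to 7.05 CPM in vehicle and 6.96 to 26.1 CPM in ginkgetin libraries, and the 6 endothelial markers to 74.6 to 96.8 CPM and 291 to 880 CPM. The 9 macrophage markers summed to 11100 to 14570 CPM in vehicle and 3458 to 7844 CPM in ginkgetin libraries. The part of these 3 lists in the calls was not tested. In macrophage-like cells, Klrc1 had means of 1.36 CPM in vehicle and 13.6 CPM in ginkgetin libraries (log2 fold change 2.92, SE 0.54, adjusted p = 0.0203 in edgeR), while T-lineage markers were also higher there, and its adjusted p was 0.0929 without ginkgetin library 2. In these cells Klrc1, Zap70 and Cxcr6 passed the filter on low counts through the ginkgetin libraries alone and Klra3 through the vehicle libraries alone. In myeloid-like cells Zap70, Cxcr6 and Tbx21 passed through the ginkgetin libraries alone. The folds of such genes could go only 1 way, so their calls are no support for a difference. Nothing is read from the counts of called list genes in these 2 classes. Klra3 had a mean of 5.82 CPM in vehicle and no UMI in ginkgetin libraries.

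Across the 92 class by library sums of 17 classes, the genes whose levels ran most like each member followed the same division, given here as Pearson's r of log2(CPM + 1) without a test, since sums of 1 library share depth and free RNA. Klra4 and Klra8 were most like Cma1, a chymase gene of NK cells (r = 0.87 and 0.82), followed by Khdc1a and Ncr1. Klra2 was most like Clec4a3 (r = 0.85), Treml4 and Pilra, genes of macrophages and monocytes. Klrc2 and Klra7 were most like Samd3 (r = 0.95 and 0.89) with the death ligand gene Fasl next, and Klrb1c and Klre1 most like the chemokine gene Xcl1 (r = 0.90 and 0.91). Klrd1 was most like Cd7 (r = 0.91), Klrk1 most like Padi2 (r = 0.89) and Klrg1 most like Il18rap (r = 0.82), a subunit of the interleukin-18 receptor.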

How the data were processed

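Single-cell RNA sequencing counts of LNPCs from vehicle-treated and ginkgetin-treated NASH mice were analysed, 3 libraries in each group as the labels give them. The authors deposited 1 table of raw UMI counts per library, with genome builds GRCm38 and mm10 in the submitters' processing notes. The aligner and annotation are not given in the sources used here, and the authors' clusters were not used. Members and gene lists were chosen with earlier results of these data known.

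Cells with 250 to 5000 detected genes and under 5% mitochondrial UMIs were kept. They were scaled to 10000 UMIs, log-transformed and clustered with scanpy 1.11.5 and leidenalg 0.10.2 (2000 variable genes, 30 components, 15 neighbours, resolution 1). T, NK and ILC cells were clustered again in libraries 1 and 2 and in libraries 3 separately (1500 genes, 20 components, resolution 2). Klr genes were left out of clustering. Scrublet called 0.0286% to 0.192% of cells per library as doublets and so was judged not to have worked, and cells in the top 5% of doublet scores were left out in an alternative. UMIs were summed per class and library with at least 10 cells and tested with edgeR 4.0.16 (TMM, filterByExpr, quasi-likelihood F test, Benjamini-Hochberg adjustment over all genes), with DESeq2 1.42.0 as an alternative. The edgeR fit was tested on simulated data. Values depend on depth, so shares of cells used cells thinned to 1000 UMIs, and intervals of a count of 0 used a floor of 3 counts and cover counting error only.

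Same-numbered libraries deviated together (r of deviations from the group means 0.508 to 0.881 in ILC1-like, 0.607 to 0.874 in NKT-like, 0.546 to 0.841 in CD8 T-like and 0.676 to 0.908 in myeloid-like cells), so the replicate number met the criterion for pairing there (every pair above 0.1). Libraries 1 and 2 correlated as much across numbers as within them, so the block mainly separates libraries 3 from the others, and a block of library set was fitted too. In NK-like cells the 2 pairs gave -0.013 and -0.095. Named genes were the members and, for each list and class, up to 4 genes (2 by level and 2 by p). For likeness, the 3 genes outside the Klr families with the highest r among genes with a mean of at least 5 CPM were named. Cd3e in macrophage-like cells and the markers of libraries and subsets were chosen after their values had been seen. Alternatives are given in the closing part.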

Additional observations from a re-analysis of the deposited data

Results flagged for a closer look

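Klre1 had log2 fold changes, ginkgetin over vehicle, of -0.70 in NK-like cells and -0.54 in ILC1-like cells, with every ginkgetin library below every vehicle library, and of 2.12 in macrophage-like cells, with every ginkgetin library above every vehicle library. With marker gates in place of clusters, Klre1 overlapped between the groups in NK-like cells and stayed lower in ILC1-like cells. It was marked because the libraries moved in opposite directions in the lymphoid and the macrophage-like cells, and the difference between the classes was not tested. The macrophage-like value rests on few UMIs of a gene that passed the filter on low counts through the ginkgetin libraries alone, so its fold could only be upward and the contrast is a description. It was 0.60 (SE 1.28 in edgeR) without ginkgetin library 2, which stood at 18.1 CPM against 2.91 and 2.90 CPM in the other ginkgetin libraries.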

How the results depend on the processing

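Which genes were called depended strongly on the model. The count of called genes in NK-like cells was 1 and became 56 without a filter on genes, 10 with the replicate block, 17 with the library set as a block, and 0 with replicates 1 and 2 only or with gates in place of clusters. In ILC1-like cells it was 0 and became 9 with DESeq2, 54 without a gene filter, 54 with the replicate block, 88 with the library set block, and 1 with replicates 1 and 2 only or with gates. In NKT-like cells it was 0 and became 27 with DESeq2, 2 without a gene filter, 59 with the replicate block, 89 with the library set block, 29 with replicates 1 and 2 only, 1 with the 250 to 5000 UMI range and 2 with gates. In CD8 T-like cells it was 0 and became 20 with DESeq2, 4 with the replicate block and 1 with the library set block. In myeloid-like cells it was 678 and became 1093 with DESeq2, 258 without a gene filter, 1300 with the replicate block, 1324 with the library set block, 7 with the UMI range and 9 with gates. The cause of these shifts was not tested. Leaving out 1 library at a time gave 0 to 1 calls in NK-like, 0 to 1 in ILC1-like, 0 in NKT-like, 0 in CD8 T-like and 0 to 492 in myeloid-like cells.

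In the fits chosen after the data had been seen, macrophage-like calls went from 1045 to 684 without a gene filter, 1607 with the replicate block, 1658 with the library set block, 166 with the UMI range and 0 to 1135 without 1 library. Monocyte-like calls went from 0 to 129 with DESeq2, 303 with the replicate block and 254 with the library set block, and dendritic-like calls from 0 to 42, 255 and 227.

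The 189 log2 fold changes of members under alternatives covered 14 results, chosen for an unadjusted edgeR p under 0.05 or non-overlapping libraries. That choice favoured clear directions, so their stability says nothing on the members in general. Of the 189, 176 kept their direction and side of the threshold, 5 passed it, 3 no longer passed it and 5 reversed. Reversed values were Klrk1 in NK-like cells with gates (0.067) and Klra2 in myeloid-like cells without a gene filter (-0.019), with replicates 1 and 2 only (-0.0017) and without 1 library (-0.12 to 0.19). The replicate block changed the calls of Klrb1c in NKT-like and Klre1 in macrophage-like cells and no other member's call among the results listed. Of 69 share differences 2 reversed, Klrd1 in NK-like cells at 500 UMIs (1.33 points) and Klra2 in myeloid-like cells without thinning (-7.16 points). Of 90 co-detection differences 9 reversed, at 500 UMIs Klra7 with Klra8 (-1.22), Klra8 with Klrc2 (1.33), Klra8 with Klrg1 (-5.43) and Klrc2 with Klrg1 (-6.40), without thinning Klra8 with Klrc2 (15.4), and with an NK gate Klra7 with Klrg1 (5.93). Without 1 library, Klra7 with Klrg1 ranged from -6.83 to 1.43, Klra8 with Klrc2 from -11.7 to 5.28 and Klrc2 with Klrg1 from -4.26 to 3.48.

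The members' standard errors in NK-like cells (206 cells) were 0.32 to 0.48 on the log2 scale, and larger ones stood in classes with more cells, such as 0.70 for Klra7 in CD8 T-like cells. Klrg1 and the rare members of myeloid cells rested on few UMIs.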

Other observations

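The 9 NK-like cells of vehicle library 3, too few to be tested, held 912 CPM of Klra4, 1282 CPM of Klra8, 484 CPM of Klra7, 769 CPM of Klrb1c, 969 CPM of Klre1 and 1253 CPM of Klrk1. Their Klra8 value was above those of the 5 libraries tested (648 to 1067 CPM), and their Klre1 value lay between the vehicle and the ginkgetin libraries.

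Outside NK cells and ILC1, Klra8 had 18 UMIs (35.4 CPM) in the 51 plasma cell-like cells of vehicle library 1 and 11 UMIs (54.2 CPM) in the 78 Cd8a+ Cd8b1-low cells of ginkgetin library 2. Both values were chosen after they had been seen, and their source was not tested.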
